A study of Mus musculus with 16 samples.

Results

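The transcripts described here encode 9 enzymes and enzyme subunits of the mitochondrial citrate cycle: Cs, Idh2, Idh3a, Ogdh, Dlst, Suclg1, Sucla2, Fh1 and Mdh2. They were taken by gene symbol from a table of estimated read counts per gene, where they are 9 of 17230 genes, and all 9 were among the 17212 genes tested. The RNA came from the plantaris, a plantar flexor of the ankle, of mice aged 9 to 12 weeks. Muscles of Wild Type (WT) mice and of TRIM28 mKO mice (KO), labelled as a Trim28 knockout, were taken after either sham surgery (Sham) or myotenectomy (MTE), an overload of the muscle per the labels. KO Sham had 3 libraries, called columns 1 to 3 because they could not be matched to single labelled samples, and each of the other groups had 4. The part of Trim28 removed, the cells in which it was removed and the time between surgery and collection are not stated in the labels.

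The citrate cycle runs in the mitochondrial matrix, where it oxidises the acetyl group of acetyl-CoA to carbon dioxide and passes the electrons to the respiratory chain. Citrate synthase joins acetyl-CoA to oxaloacetate, isocitrate and oxoglutarate are decarboxylated in turn, succinyl-CoA synthetase forms a nucleoside triphosphate, and fumarase and malate dehydrogenase close the ring. Muscle fibres with a high oxidative capacity hold more of these enzymes, and citrate synthase activity is widely used as a measure of mitochondrial content.

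Most of these transcripts were lower after overload in both genotypes. In WT muscle 7 of the 9 fell and none rose, by 1.53-fold (Fh1) to 2.52-fold (Idh2). In KO muscle 6 fell and none rose, by 1.32-fold (Cs) to 2.27-fold (Idh2). Fh1 was the only one of the 9 called between genotypes, and it was higher in KO. A gene was called here at an adjusted p under 0.05 in edgeR's quasi-likelihood test, adjusted over all genes tested.

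Libraries held between 21.1 M and 69.2 M counts, where M stands for mega. Every level below is in CPM, a gene's count relative to a fixed total (1 M) after TMM scaling of the library size. Trim28, the targeted gene, lay at 5.39 to 12.7 CPM in KO Sham against 27.8 to 49.0 CPM in WT Sham, and at 18.0 to 30.3 CPM in KO MTE against 35.3 to 60.9 CPM in WT MTE. All 15 muscle markers listed for the check of the tissue were in the table and above 0 in every library. The libraries WT Sham 1 and KO Sham column 3 stood apart from their groups. WT Sham 1 had a summed macrophage marker level of 3595 CPM against 285 to 409 CPM in the other WT Sham libraries, and 6.95% of its counts came from mitochondrially encoded genes against 13.3% to 14.4%. In KO Sham column 3 that share was 20.5%, the highest of the 15 libraries. Separate mice are not named as the source of each library in the labels, and the p-values therefore speak only of the spread among these libraries, which may be technical.

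The enzymes were well covered, with 1751 to 35574 estimated counts per gene and library. All 135 values lay within 0.01 of a whole number, and no exon of the 9 genes shared a base with an exon of another gene in the GENCODE M21 annotation. Levels of different genes can be compared only per length, as RPKM, the CPM divided by the annotated exon length in kilobases. In WT Sham the order of mean RPKM was Sucla2 (100.4 ± 24.2, SD), Ogdh (97.4 ± 7.32), Cs (94.8 ± 8.38), Idh2 (90.0 ± 13.8) and Idh3a (77.6 ± 15.2), and neighbours among these 5 differed by less than the spread between libraries. Below them came Mdh2 (54.1 ± 4.46) and Fh1 (48.9 ± 5.59), again within the spread of each other, then Suclg1 (30.4 ± 4.59) and Dlst (19.0 ± 0.794). The order depends on the gene length used. With the longest transcript in place of all exons, Cs came first at 182 RPKM, Idh2 (130.1), Ogdh (129) and Mdh2 (119.9) lay side by side, and Suclg1 came last at 50.8.

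Summed over the 9 genes, the level was 2787 ± 270.05 CPM in WT Sham and 1701 ± 106 CPM in WT MTE (SD). It was 3121 ± 68.3 CPM in KO Sham and 2075 ± 263 CPM in KO MTE. The highest MTE library, KO MTE 1 at 2445 CPM, lay just above the lowest Sham library, WT Sham 1 at 2406 CPM.

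**Figure D1:**
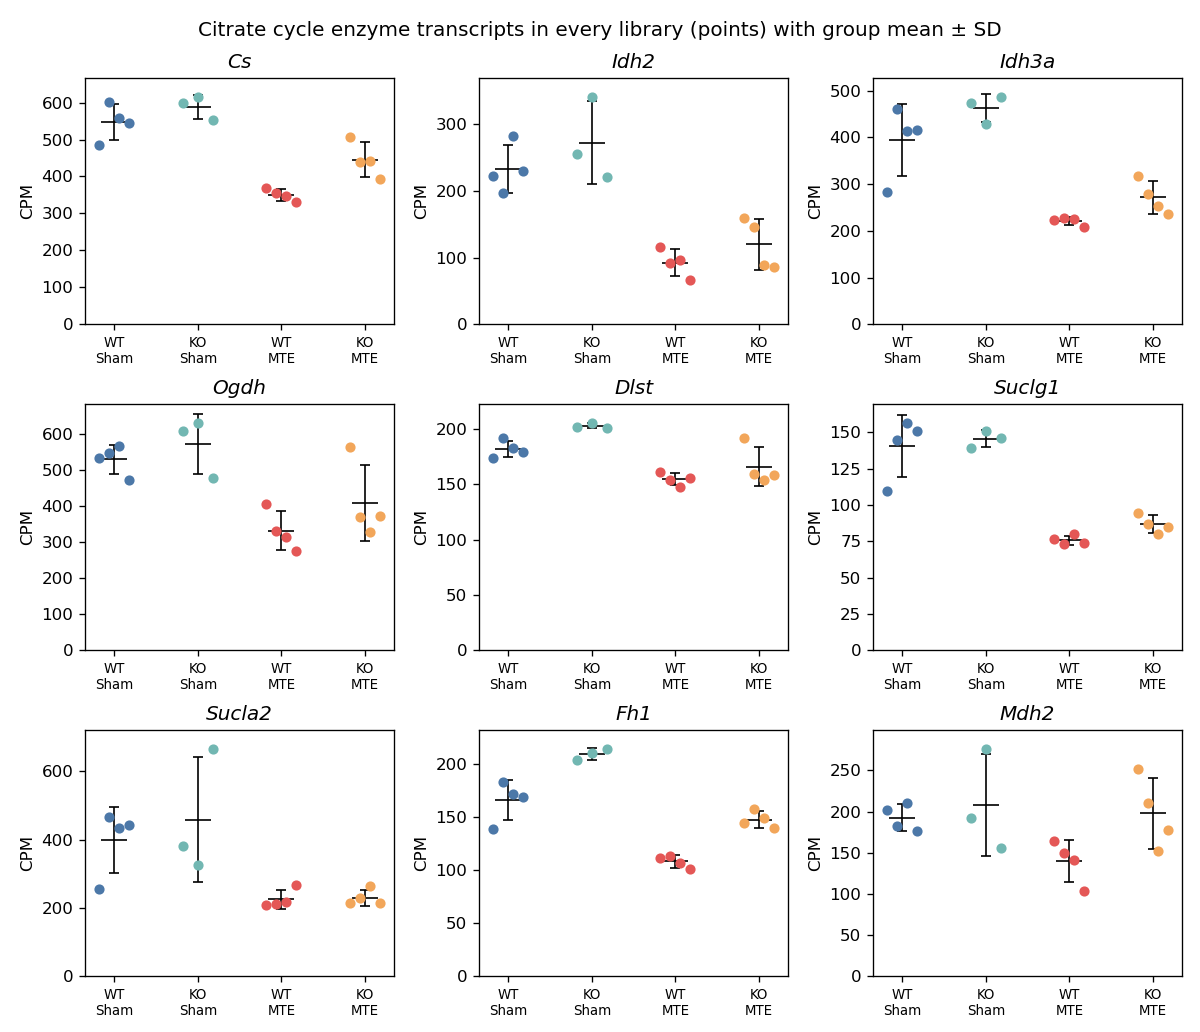
Level of each of the 9 transcripts in CPM (linear vertical axis from 0) in the 15 libraries, with 1 panel per gene. Points are libraries, in replicate order within a group, and bars are the group mean ± SD (n = 4, and n = 3 for KO Sham). Suclg1 and Idh2 separate both MTE groups from both Sham groups, whereas Mdh2 spreads widely in every group but WT Sham.

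Cs encodes citrate synthase, which commits acetyl-CoA to the cycle. Its transcripts lay at 485, 602.5, 559 and 544 CPM in WT Sham 1 to 4 and at 369, 356, 348 and 329.9 CPM in WT MTE 1 to 4. In KO they lay at 598, 616 and 553 CPM in Sham columns 1 to 3 and at 508, 439, 442 and 393 CPM in MTE 1 to 4. Every MTE library was below every Sham library of its genotype, and among the MTE libraries every KO value was above every WT value. With overload Cs fell 1.56-fold in WT (log2 fold change -0.64, SE 0.12, adjusted p = 0.00153) and 1.32-fold in KO (log2 fold change -0.40, SE 0.13, adjusted p = 0.0324). The KO call did not survive the loss of single libraries: the adjusted p was 0.0826 without KO Sham column 1, 0.0651 without column 2, and 0.0737, 0.0578 and 0.0846 without KO MTE 2, 3 and 4.

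The next step has a pair of mitochondrial isocitrate dehydrogenases. Idh2 encodes the NADP-dependent enzyme, which supplies NADPH to the matrix, and it showed the largest fold change of the 9. It lay at 222, 197, 283 and 229.8 CPM in WT Sham 1 to 4 and at 116, 91.4, 96.6 and 66.6 CPM in WT MTE 1 to 4. In KO it lay at 255, 341 and 221 CPM in Sham and at 159, 146, 88.7 and 85.6 CPM in MTE. The lowest Sham library of either genotype was above the highest MTE library, and the KO MTE libraries fell into a higher pair (1 and 2) and a lower pair (3 and 4). Idh2 fell 2.52-fold in WT (log2 fold change -1.33, SE 0.23, adjusted p = 0.00103) and 2.27-fold in KO (log2 fold change -1.19, SE 0.24, adjusted p = 0.00433).

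Idh3a encodes the catalytic subunit of the NAD-dependent isocitrate dehydrogenase. Its levels were 282, 461, 414 and 416 CPM in WT Sham 1 to 4 and 224, 227, 225 and 207 CPM in WT MTE 1 to 4. In KO they were 474, 429 and 487 CPM in Sham and 318, 278, 254 and 236 CPM in MTE. Sham and MTE did not overlap within either genotype, although WT Sham 1 lay nearer to the MTE libraries than to the rest of its own group. Idh3a fell 1.78-fold in WT (log2 fold change -0.83, SE 0.15, adjusted p = 0.00128) and 1.71-fold in KO (log2 fold change -0.77, SE 0.16, adjusted p = 0.00442).

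The oxoglutarate dehydrogenase complex was represented by its first and second enzymes. Ogdh encodes the decarboxylase. Its transcripts lay at 534, 549, 567 and 475 CPM in WT Sham 1 to 4 and at 406, 332, 315 and 276 CPM in WT MTE 1 to 4. In KO it lay at 608, 633 and 478 CPM in Sham and at 565, 371, 329 and 374 CPM in MTE. The WT groups were separate, while in KO the library MTE 1 was above Sham column 3. Ogdh fell 1.60-fold in WT (log2 fold change -0.68, SE 0.18, adjusted p = 0.0128). In KO the log2 fold change of -0.48 (SE 0.19) missed the threshold at an adjusted p of 0.0730, and without KO MTE 1 it was -0.68 with an adjusted p of 0.0145. With all libraries, the KO difference was called by DESeq2 (adjusted p = 0.0262) and with sample quality weights (adjusted p = 0.0103). It was not called by limma voom or with RLE size factors.

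Dlst encodes the succinyltransferase core of the same complex and had the smallest fold change in WT. In WT Sham, KO Sham and WT MTE its SD of log2 CPM was the smallest of the 9 (0.060, 0.018 and 0.053). Dlst levels were 174, 192, 183 and 179 CPM in WT Sham 1 to 4 and 161, 154, 148 and 156 CPM in WT MTE 1 to 4. In KO it lay at 202, 206 and 201 CPM in Sham and at 192, 159, 154 and 159 CPM in MTE. Sham and MTE libraries did not overlap in either genotype, and every KO Sham library was above every WT Sham library. The overload difference was not called in WT (log2 fold change -0.23, SE 0.10, adjusted p = 0.0981) or in KO (log2 fold change -0.29, SE 0.11, adjusted p = 0.0576). Without WT Sham 1 it was called in both, at -0.30 with an adjusted p of 0.0369 in WT and -0.29 with 0.0468 in KO, and without KO MTE 1 the KO value was -0.37 with an adjusted p of 0.0253. With all libraries, DESeq2 called Dlst in both genotypes (adjusted p = 0.00457 in WT and 0.00389 in KO). So did sample quality weights (0.0134 and 0.0177) and RLE size factors (0.0445 and 0.0396), whereas limma voom did not.

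Succinyl-CoA synthetase is a pair of subunits, and Suclg1 encodes the alpha subunit common to its ATP-forming and GTP-forming versions. Suclg1 lay at 109.6, 145, 157 and 151 CPM in WT Sham 1 to 4 and at 76.8, 73.1, 79.8 and 73.6 CPM in WT MTE 1 to 4. In KO it lay at 139, 151 and 146 CPM in Sham and at 94.8, 87.3, 80.2 and 85.0 CPM in MTE. All 8 MTE libraries were below all 7 Sham libraries, and the 4 KO MTE libraries were above the 4 WT MTE libraries. Suclg1 had the smallest adjusted p of the 9 in both genotypes, with a 1.85-fold fall in WT (log2 fold change -0.89, SE 0.12, adjusted p = 0.000143) and a 1.68-fold fall in KO (log2 fold change -0.75, SE 0.12, adjusted p = 0.00118).

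Sucla2 encodes the beta subunit of the ATP-forming version. Its levels were 257, 467, 435 and 443 CPM in WT Sham 1 to 4 and 208, 211, 217 and 267 CPM in WT MTE 1 to 4. In KO they were 381, 327 and 667 CPM in Sham and 214, 229, 265 and 214 CPM in MTE. WT MTE 4 was above WT Sham 1, so the WT groups overlapped, and KO Sham column 3 was the highest library of all. Sucla2 fell 1.77-fold in WT (log2 fold change -0.82, SE 0.22, adjusted p = 0.0150) and 1.99-fold in KO (log2 fold change -0.99, SE 0.24, adjusted p = 0.00958). Without KO Sham column 3 the KO log2 fold change was -0.62, with an adjusted p of 0.0641.

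Fh1 encodes fumarase, which hydrates fumarate to malate. It lay at 139, 183, 172 and 169 CPM in WT Sham 1 to 4 and at 112, 113, 107 and 101 CPM in WT MTE 1 to 4. In KO it lay at 203, 210.3 and 214 CPM in Sham and at 144, 158, 149 and 139.5 CPM in MTE. The 4 groups kept a clear order, with WT MTE lowest and KO Sham highest, and KO MTE overlapped only with WT Sham, through WT Sham 1. With overload Fh1 fell 1.53-fold in WT (log2 fold change -0.61, SE 0.11, adjusted p = 0.000899) and 1.42-fold in KO (log2 fold change -0.50, SE 0.11, adjusted p = 0.00648).

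Mdh2 encodes the mitochondrial malate dehydrogenase, which regenerates oxaloacetate and also serves the malate-aspartate shuttle. It lay at 202, 182, 210.1 and 177 CPM in WT Sham 1 to 4 and at 164, 150.2, 142 and 104 CPM in WT MTE 1 to 4. In KO it lay at 192, 276 and 155 CPM in Sham and at 251, 210.4, 152 and 178 CPM in MTE. The WT groups did not overlap, whereas the KO groups lay across each other. The difference was not called in WT (log2 fold change -0.46, SE 0.20, adjusted p = 0.102) or in KO (log2 fold change -0.07, SE 0.21, adjusted p = 0.816). The WT difference was called by DESeq2 (adjusted p = 0.0362), with sample quality weights (adjusted p = 0.0283) and with the WT groups fitted alone (adjusted p = 0.0413). The KO value changed sign without KO Sham column 2 (0.19) and without KO MTE 3 (0.034).

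Over all genes tested, 11.2% were called lower and 14.1% higher with overload in WT, against 7 and 0 of these 9. The Sham and MTE libraries of WT did not overlap, with MTE lower, for 8 of the 9 (all but Sucla2) and for 11% of all genes. The median log2 fold change was -0.68 over the 9 and 0.036 over all genes. In KO 12.7% of all genes were called lower and 13.2% higher, against 6 and 0 of the 9. There the groups did not overlap, with MTE lower, for 7 of the 9 (all but Ogdh and Mdh2) and for 16.2% of all genes, and the medians were -0.50 and 0.038. In bulk tissue, fewer cells of a type and less RNA per cell cannot be told apart. Some cell type markers also moved with the surgery. The summed level of 10 fibroblast markers ran from 2423 to 4073 CPM in WT Sham and from 10493 to 26809 CPM in WT MTE, and from 1436 to 3931 CPM in KO Sham and from 12893.5 to 16862 CPM in KO MTE. Of the 10, 9 were called higher with overload in WT and 7 in KO, against 14.1% and 13.2% of all genes. Of 12 macrophage markers 1 was called higher in WT, a smaller share than that of all genes, and 2 had a log2 fold change below 0. Their sum was 3595 CPM in WT Sham 1, which weighs on that result. It was 285 to 409 CPM in the other WT Sham libraries and 1283 to 1713 CPM in every WT MTE library. In KO 6 of the 12 macrophage markers were called higher, and their sum ran from 140 to 326 CPM in Sham and from 927 to 1073 CPM in MTE. The 15 muscle markers summed to 100993 to 132922 CPM in WT Sham and 64679 to 91381 CPM in WT MTE, and to 72964 to 90859 CPM in KO Sham and 56627.5 to 84594.5 CPM in KO MTE. One by one they did not all fall. In WT 5 of the 15 were called lower and 0 higher, and 9 had a log2 fold change below 0 (median -0.48). In KO 3 were called lower and 1 higher, and 10 were below 0 (median -0.13). None of the markers in the table was at 0 in any library, and the part of these shifts in the result was not tested. Without WT Sham 1 and KO Sham column 3 together, 8 of the 9 were called lower in WT and 7 in KO. The share of all genes called in that fit is not given here, so these higher counts do not set the 9 apart from other genes.

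**Figure D2:**
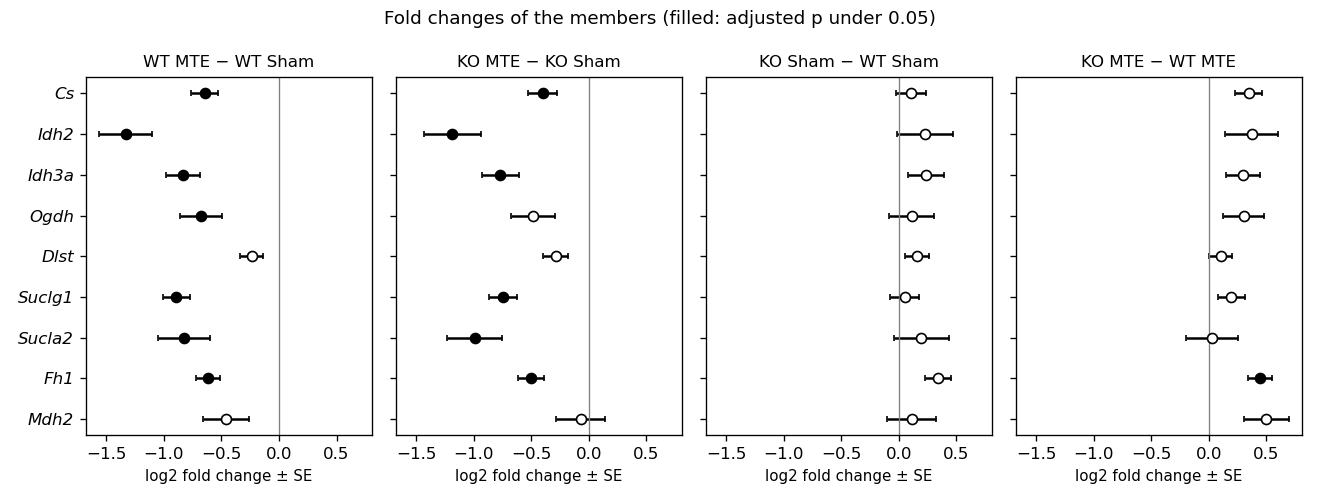
Log2 fold change (horizontal axis) with its SE from the edgeR fit for each of the 9 genes in 4 comparisons, where filled points have an adjusted p under 0.05. Both overload comparisons lie to the left of 0 for all 9, with 7 and 6 filled points, and both genotype comparisons lie to the right of 0, with Fh1 in MTE the only filled point.

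The genotypes were then compared at each surgery. In Sham muscle all 9 log2 fold changes of KO against WT were above 0, from 0.050 (Suclg1) to 0.34 (Fh1), and none was called by edgeR, DESeq2 or limma voom. At an unadjusted p under 0.05 edgeR gave 1 of the 9, Fh1 (adjusted p = 0.296), as against 1861 of 17212 genes, a similar share. Of all genes 0.18% were called lower and 0.331% higher. Sham libraries of KO and WT did not overlap, with KO higher, for 2 of the 9 (Fh1 and Dlst) and for 4.54% of all genes. The median was 0.16 over the 9 and -0.012 over all genes. WT Sham 1 was the lowest library of its group for 6 of the 9 genes (Cs, Idh3a, Dlst, Suclg1, Sucla2 and Fh1). Without it the Suclg1 value turned to -0.076, and without KO Sham column 3 the Sucla2 value turned to -0.18. The summed muscle markers were lower in KO Sham than in WT Sham, as given above. All 12 macrophage markers had a log2 fold change below 0 (median -2.16) and none was called, with WT Sham 1 high as given above. The part of these markers in the differences was not tested.

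In overloaded muscle Fh1 was 1.36-fold higher in KO (log2 fold change 0.45, SE 0.10, adjusted p = 0.0488), higher in 4 of 4 KO libraries than in any WT library. Of all genes 0.256% were called lower and 1.21% higher. The Fh1 call was at the edge of the threshold: it was kept when WT Sham 1 or KO Sham column 3 was left out, and lost when any other single library was, with adjusted p-values of 0.0520 to 0.182 and log2 fold changes of 0.41 to 0.47. The other 8 values were above 0 and not called. Mdh2 had the largest of them, 0.50 (SE 0.20, adjusted p = 0.285), followed by Idh2 at 0.37 (SE 0.23, adjusted p = 0.539) and Cs at 0.35 (SE 0.12, adjusted p = 0.205). The smallest were Dlst at 0.10 and Sucla2 at 0.03. Libraries of the MTE groups did not overlap, with KO higher, for 4 of the 9 (Fh1, Cs, Idh3a and Suclg1) and for 5.58% of all genes, and the median was 0.30 over the 9 and -0.060 over all genes. The macrophage markers summed to 1283 to 1713 CPM in WT MTE and 927 to 1073 CPM in KO MTE. All 12 had a log2 fold change below 0, as did all 10 fibroblast markers (median -0.38), and none was called. Most endothelial, adipocyte, Schwann cell and erythroid markers were also below 0. Of the 15 muscle markers 6 were below 0 (median 0.094), while their mean sum was 77348 CPM in WT MTE and 64752 CPM in KO MTE. The part of these markers in the difference was not tested.

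Averaged over both surgeries, Fh1 was 1.31-fold higher in KO (log2 fold change 0.39, SE 0.08, adjusted p = 0.0104), and it stayed called when each library was left out in turn, at an adjusted p of 0.0107 to 0.0297. Of all genes 1.01% were called lower and 2.36% higher in this average. The other 8 values ran from 0.11 (Sucla2) to 0.31 (Mdh2) and were not called by edgeR.

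Whether overload acted differently in the genotypes was tested directly, by subtracting the log2 overload response of WT from that of KO. None of the 9 was called, and edgeR gave 0 of the 9 at an unadjusted p under 0.05, as against 605 of 17212 genes. DESeq2 called 0 of the 9 and limma voom 0. The background was 0% of all genes by edgeR. Mdh2 had the largest difference, 0.39 (SE 0.29, adjusted p = 0.989), then Cs, 0.24 (SE 0.17). With errors of this size, a p that misses the threshold does not show that the responses were alike. For Fh1 the difference was 0.11 (SE 0.15), so its higher level in KO was not shown to depend on the surgery.

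The profiles of the 9 transcripts differed from one another. Each gene's log2 CPM was centred on its mean over the 15 libraries and compared with the mean profile of the 9, as a root mean square difference. Cs lay nearest to that profile at 0.090, then Suclg1 (0.12), Idh3a (0.13), Fh1 (0.14) and Ogdh (0.15). Dlst (0.22), Mdh2 (0.29), Sucla2 (0.33) and Idh2 (0.38) lay farther away. Per length, the ratio of Sucla2 to Mdh2 ran from 0.761 in KO MTE 1 to 3.83 in KO Sham column 3, and within the WT Sham group from 1.14 to 2.29. The genes outside the 9 that lay nearest to their mean profile were Nt5dc3 (0.085), Ndufa9 (0.085), Slc25a12 (0.093), Idh3g (0.11) and Coq5 (0.11). Taken one at a time, the nearest gene was Ndufs3 to Cs (0.073), Pitpnm3 to Idh2 (0.21), Isca1 to Idh3a (0.090), Mfn2 to Ogdh (0.12) and Mtf1 to Dlst (0.076). It was Sdha to Suclg1 (0.074), Txlng to Sucla2 (0.072), Cep20 to Fh1 (0.072) and Cyc1 to Mdh2 (0.11). These are descriptions over 15 libraries that share the surgery difference.

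**Figure D3:**
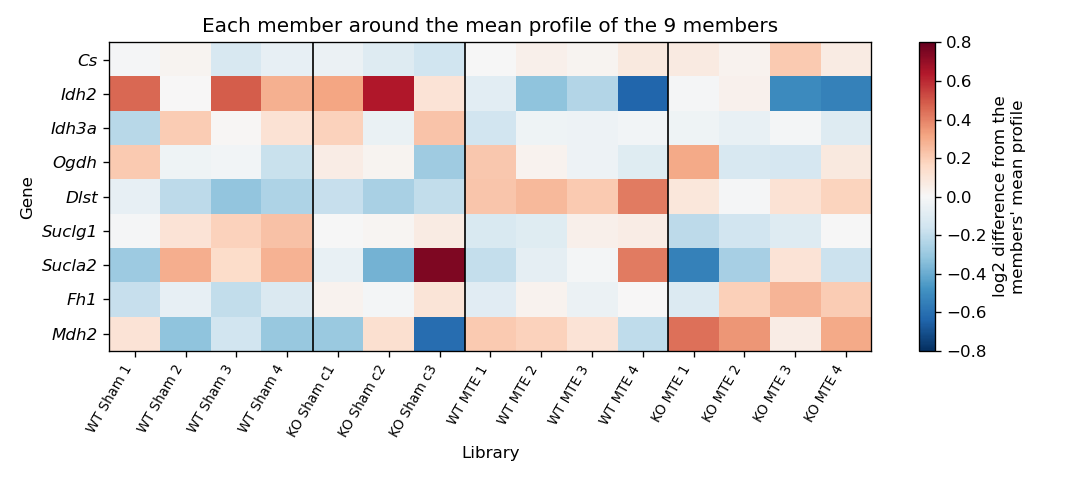
Heat map of the 9 genes (rows) over the 15 libraries (columns, black lines between groups), where c1 to c3 are the KO Sham columns. Colour is the log2 difference of a gene from the mean profile of the 9, red above and blue below. Cs is pale throughout (0.090), Idh2 is red in most Sham and blue in most MTE libraries (0.38), and Sucla2 and Mdh2 take opposite colours in KO Sham column 3 and KO MTE 1.

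Of 16 genes for the remaining subunits and assembly factors of the cycle enzymes and for related enzymes, 11 fell with overload in WT and none rose (median log2 fold change -0.56), and in KO 8 fell and 1 rose (median -0.44). The pair with the smallest adjusted p in WT was Idh3g, a regulatory subunit of the enzyme that Idh3a belongs to (-0.81, SE 0.12, adjusted p = 0.00034), and Sdha, the flavoprotein subunit of succinate dehydrogenase (-0.91, SE 0.14, adjusted p = 0.00035). Direct partners of the 9, chosen after their values were seen, also fell in WT. Idh3b, another NAD-isocitrate dehydrogenase subunit, had a log2 fold change of -0.70 (adjusted p = 0.00449), and Suclg2, the GTP-forming beta subunit, -0.68 (adjusted p = 0.00422). Dld, the third enzyme of the oxoglutarate dehydrogenase complex, had -0.69 (adjusted p = 0.0302). The gene that rose in KO was Ogdhl, an Ogdh-like enzyme, at 2.11 ± 0.589 CPM in KO MTE against 1.01 ± 0.209 in KO Sham (log2 fold change 1.06, adjusted p = 0.0314). In the leave-one-out fits, 8 to 13 fell in WT and 5 to 10 in KO, and the 5 came without KO Sham column 3. Of all genes, 1246 to 3021 were called lower in WT and 953 to 2718 in KO in those fits. The list counts given here and below thus moved alongside changes in the calls of all genes. The Ogdhl call was lost without KO Sham column 1, KO Sham column 3 or KO MTE 4. For comparison with this list and those below, 11.2% of all genes were called lower and 14.1% higher in WT. In KO these shares were 12.7% and 13.2%.

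Entry of pyruvate into the cycle is set by the pyruvate carrier, the pyruvate dehydrogenase complex and its kinases and phosphatases. Of 13 such genes, 9 fell with overload in WT and 1 rose (median -0.78). Pdk2, a kinase that inhibits the complex, fell (-0.89, SE 0.15, adjusted p = 0.00073), as did Mpc2, a subunit of the pyruvate carrier (-1.01, SE 0.18, adjusted p = 0.0012). Pdk3, another of the kinases, was the one that rose (1.37, SE 0.27, adjusted p = 0.00212). In KO 8 fell and 1 rose (median -0.53), but 4 fell without KO MTE 2 or 4, and 5 without KO Sham column 3, WT MTE 1, WT MTE 3 or KO MTE 3. Pdk1, a further kinase, was higher in KO than in WT after overload (log2 fold change 0.79, SE 0.14, adjusted p = 0.0111) and on the average of both surgeries (0.57, adjusted p = 0.00588). Dlat, the acetyltransferase core of the complex, was higher in KO on that average (0.38, adjusted p = 0.0422), and so was Sdhaf2, an assembly factor of succinate dehydrogenase (0.32, adjusted p = 0.0142).

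Of 20 genes for anaplerosis and mitochondrial carriers, 11 fell and 3 rose in WT (median -0.59), and 8 fell and 3 rose in KO (median -0.30). The share that rose was near that of all genes called higher, 14.1% in WT and 13.2% in KO. Gpt2, a mitochondrial alanine transaminase, fell most firmly in WT (-1.89, SE 0.24, adjusted p = 0.000126), followed by Pcca, a propionyl-CoA carboxylase subunit (-0.96, SE 0.13, adjusted p = 0.000156). Pck2, the mitochondrial phosphoenolpyruvate carboxykinase (0.63, adjusted p = 0.0371), and Me2, a malic enzyme (0.75, adjusted p = 0.0399), rose. In WT none rose when WT Sham 2, 3 or 4 or WT MTE 1, 2 or 3 was left out, and 1 when KO MTE 2 or 3 was. In KO 1 rose when KO Sham column 1, column 3 or KO MTE 2 was left out. Pcx, the pyruvate carboxylase, was lower in KO on the average of both surgeries (-1.08, SE 0.24, adjusted p = 0.0224). Among 8 branch and cytosolic enzymes, 2 fell in each genotype (medians -0.45 in WT and -0.36 in KO). D2hgdh, a mitochondrial dehydrogenase of D-2-hydroxyglutarate, had a log2 fold change of -0.75 in WT (adjusted p = 0.00146). Without WT Sham 1, 4 of the 8 fell and 3 rose in WT and 2 rose in KO, without KO Sham column 3 1 rose in WT, without KO Sham column 1 or KO MTE 4 1 fell in KO, and without KO Sham column 2 1 rose in KO.

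Other mitochondrial genes are given for scale. Of 38 genes with symbols of complex I subunits, 24 fell in WT (median -0.54), led by Ndufa9 (-0.68, adjusted p = 0.000519) and Ndufs3 (-0.61, adjusted p = 0.000534). In KO 11 fell (median -0.23), but 3 without KO Sham column 3, 5 without KO MTE 4 and 7 without KO MTE 1. Of 21 genes of mitochondrial structure and import, 9 fell in WT (median -0.47) and 11 in KO (median -0.55), among them the channel gene Vdac1 (-1.13 in WT, adjusted p = 0.000143) and the fusion gene Mfn1 (-1.07 in WT, adjusted p = 0.00144). The KO count was 6 without KO Sham column 3 and 7 without KO MTE 2. Of 20 regulators of mitochondrial biogenesis, 2 fell in WT, no larger a share than the 11.2% of all genes called lower there. They were Tfb1m, a methyltransferase of mitochondrial ribosomal RNA (-0.63, adjusted p = 0.00776), and Tfb2m, a mitochondrial transcription factor (-0.91, adjusted p = 0.00812). In KO 5 fell (medians -0.25 and -0.23). Their WT count was 4 without WT Sham 1 or KO Sham column 3, and their KO count was 0 without KO Sham column 3, 2 without KO MTE 2 or 3, and 3 without any other single library except WT Sham 1, KO Sham column 2 and KO MTE 1. Tfb1m was also higher in KO on the average of both surgeries (0.43, adjusted p = 0.0445). Of the 15 mitochondrially encoded genes, whose ribosomal RNAs were targets of the depletion step, 5 fell in WT (median -0.89) and 11 in KO (median -1.26). In the leave-one-out fits these counts ran from 0 to 12 in both genotypes, with 12 in WT without WT Sham 1, 10 without KO Sham column 3, 0 without WT Sham 2, 3 or 4 or WT MTE 1 or 3, and 3 without WT MTE 2 or any KO MTE library. The KO count was 0 without KO Sham column 3, 7 without KO MTE 1 or 2 and 6 without KO MTE 4. The number of all genes called lower also moved, from 1246 to 3021 in WT and from 953 to 2718 in KO.

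**Figure D4:**
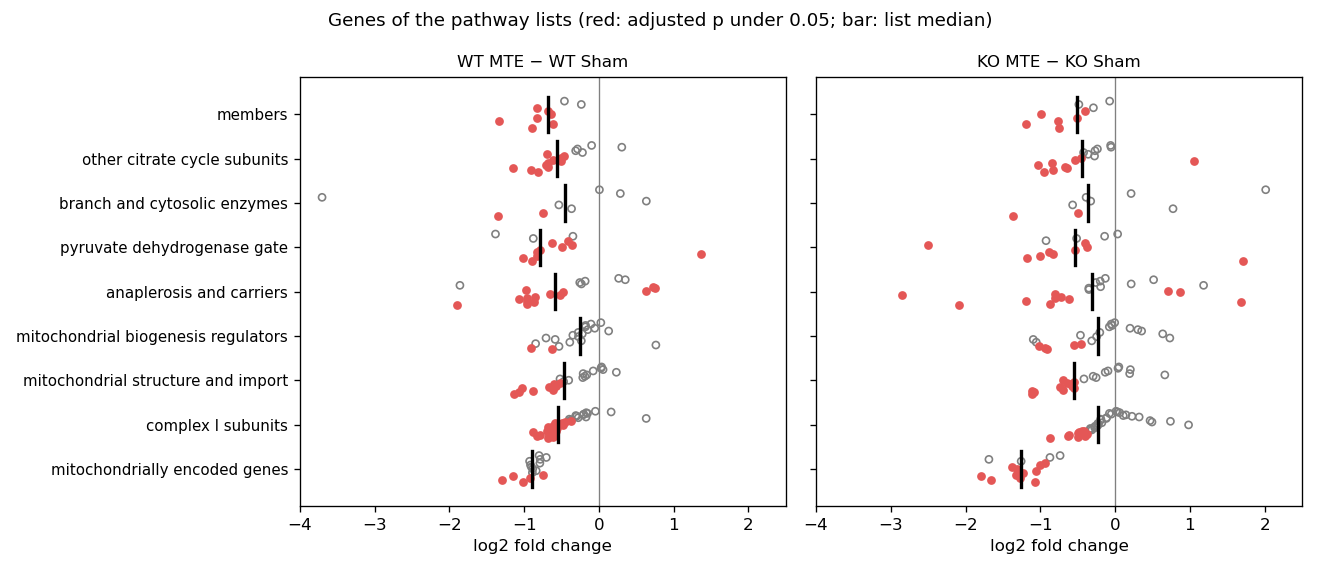
Log2 fold change with overload (horizontal axis) for the 9 genes (top row, labelled members) and for 8 lists of related genes, in WT (left) and KO (right). Each point is a gene, filled red at an adjusted p under 0.05, and black bars are list medians. The median is -0.68 in WT and -0.50 in KO for the 9, beside -0.25 and -0.23 for the biogenesis regulators.

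The upstream DNA was inspected because 7 of the 9 transcripts were called lower with overload in WT. RefSeq promoter sequences on GRCm38.p6 were found for 8 of the 9 genes and not for Idh3a. They gave 13 windows of 250 bases ending just before a transcription start, 6 of them for Ogdh. Several Ogdh windows overlap, such as chr11:6291347-6291596 and chr11:6291356-6291605. The same letters are therefore counted more than once in the window counts below, and the gene counts are free of this. For the Cs window and some Ogdh windows, both of those just named included, the first transcribed bases lie in no GENCODE transcript. The Sucla2 window, chr14:73552536-73552785, lies inside the annotated span of its gene (73525319 to 73596142). All these windows are part of the counts below. Windows are shown for Fh1, which differed between genotypes, for Dlst, which had the smallest fold change with overload in WT, and for Cs, whose profile lay nearest to the mean. Capitals mark the letters of a GC box (GGGCGG) or a CCAAT box (CCAAT) on either strand. The Fh1 window is chr1:175625636-175625885 on the minus strand, the Dlst window chr12:85110583-85110832 on the plus strand and the Cs window chr10:128337477-128337726 on the plus strand.
Fh1: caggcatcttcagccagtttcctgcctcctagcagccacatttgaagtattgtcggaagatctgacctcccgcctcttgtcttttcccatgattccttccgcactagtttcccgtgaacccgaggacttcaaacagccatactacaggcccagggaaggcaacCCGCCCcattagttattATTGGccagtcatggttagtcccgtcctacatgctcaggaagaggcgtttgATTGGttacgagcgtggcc
Dlst: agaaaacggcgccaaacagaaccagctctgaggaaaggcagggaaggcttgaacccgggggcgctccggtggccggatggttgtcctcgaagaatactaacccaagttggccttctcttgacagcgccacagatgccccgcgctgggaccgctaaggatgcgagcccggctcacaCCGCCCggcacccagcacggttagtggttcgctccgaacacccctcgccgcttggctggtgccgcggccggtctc
Cs: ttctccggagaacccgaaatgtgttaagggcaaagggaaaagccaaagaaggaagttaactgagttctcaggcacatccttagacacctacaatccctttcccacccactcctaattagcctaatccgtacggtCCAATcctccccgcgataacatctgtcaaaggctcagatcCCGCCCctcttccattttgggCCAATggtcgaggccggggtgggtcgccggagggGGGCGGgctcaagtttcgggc
A GC box was found in 8 of the 13 windows and in 7 genes (all of the 8 but Suclg1), and in 32.7% of 32851 promoter windows, or 54.8% of those of the genes tested. A CCAAT box was found in 7 windows and 4 genes (Cs, Fh1, Idh2 and Ogdh), and in 33.8% of all windows, or 35.0% of those of the genes tested. The half-site letters of oestrogen-related receptors (AAGGTCA, either strand) were in 0 of the 13, in 4.08% of all windows and in 2.86% of those of the genes tested. The letters CCGGAAG (either strand), taken for ETS factors, were in 0 of the 13. They were in 6.91% of all windows and in 12.2% of those of the genes tested. Shorter forms of these letters were not searched for. No match says only that these letters are not in this window, and a match describes letters, not binding.

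On GRCm38 in the GENCODE M21 annotation, the 9 genes lie on 9 different chromosomes. Cs (ENSMUSG00000005683) spans chromosome 10 from 128337734 to 128362479 on the plus strand, and Idh2 (ENSMUSG00000030541) chromosome 7 from 80094846 to 80115392 on the minus strand. Idh3a (ENSMUSG00000032279) spans chromosome 9 from 54586334 to 54604661 on the plus strand, and Ogdh (ENSMUSG00000020456) chromosome 11 from 6291633 to 6356642 on the plus strand. Dlst (ENSMUSG00000004789) spans chromosome 12 from 85110833 to 85134845 and Suclg1 (ENSMUSG00000052738) chromosome 6 from 73248382 to 73276911, both on the plus strand. Sucla2 (ENSMUSG00000022110) spans chromosome 14 from 73525319 to 73596142 on the plus strand. Fh1 (ENSMUSG00000026526) spans chromosome 1 from 175600374 to 175625635 on the minus strand, and Mdh2 (ENSMUSG00000019179) chromosome 5 from 135778480 to 135790398 on the plus strand.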

How the data were processed

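Total RNA of mouse plantaris was sequenced after depletion of ribosomal RNA with a stranded kit, per the labels' protocols. The authors deposited estimated counts per Ensembl gene, named raw reads in the file header, and 90.9% of the values are whole to within 0.01. The submitters' processing notes name STAR, RSEM, edgeR and the build GRCm38 without roles or versions, and no source used here says whether counting used strand. The labels describe 16 samples and the table holds 15, with 3 KO Sham columns that could not be matched to labelled samples and are called columns 1 to 3. The authors' deposited table of log2 values and p-values was used as a check and is cited by name.

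Counts were rounded, filtered with filterByExpr, scaled by TMM and fitted as 4 group means with robust edgeR 4.0.16 (R 4.3.3). Adjusted p-values are Benjamini-Hochberg over all genes tested, and the SE is the log2 fold change over the square root of F. DESeq2 1.42.0 and limma 3.58.1 (voom, with and without sample quality weights) were alternatives, beside RLE size factors, other filters, mitochondrially encoded genes left out, fewer samples and a replicate block. On simulated counts the fit was checked before use. The 9 genes, the lists and WT Sham 1 and KO Sham column 3 as doubted libraries were chosen with earlier results of these data known. Named beside the 9 were, per list, the 2 called genes of smallest adjusted p in each direction of WT overload, any called between genotypes, and the nearest profiles, and a few partner genes and Ogdhl were added after their values were seen; values of some genes that met this rule are not reported here.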

Additional observations from a re-analysis of the deposited data

Results flagged for a closer look

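In each of the 27 groups of 4 libraries (9 genes in WT Sham, WT MTE and KO MTE), the gap between the most extreme library and its neighbour was divided by the range of the group and compared with Dixon's critical value for 4 samples. Chance alone flags about 1 in 20 such groups, and 4 of the 27 passed. Sucla2 stood out in WT Sham 1, where it was low at 257 CPM against 435 to 467 CPM in the rest of the group (ratio 0.848), and in WT MTE 4, where it was high at 267 CPM against 208 to 217 CPM (ratio 0.849). Idh3a was low in WT MTE 4 at 207 CPM against 224 to 227 CPM (ratio 0.852). Dlst was high in KO MTE 1 at 192 CPM against 154 to 159 CPM (ratio 0.866).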

How the results depend on the processing

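All 9 overload values in WT kept their direction in every alternative run, and so did those in KO except Mdh2. With overload 7 to 9 of the 9 were called in WT and 5 to 8 in KO, and 7 to 8 and 5 to 8 when 1 library was left out. Among all genes, 1246 to 3021 were called lower in WT and 953 to 2718 in KO when 1 library was left out. In KO fitted alone the Cs call was lost (adjusted p = 0.112). Between genotypes after overload, DESeq2 and sample quality weights each called 2 (Fh1 and Cs), and leaving out 1 library gave 0 to 1. On the average of both surgeries DESeq2 called 2 (Cs at an adjusted p of 0.0436), and leaving out 1 library gave 1 throughout. The cause of these changes was not tested. When 1 library was left out, 82 to 327 of all genes were called higher in KO after overload, and 263 to 454 on the average. The shares of all genes called by DESeq2 and with quality weights are not given here. The counts from those runs therefore do not set the 9 apart from other genes.

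Values that changed sign had not been called. When 1 library was left out, Mdh2 in KO overload ran from -0.24 to 0.19. Between genotypes in Sham, Suclg1 ran from -0.076 to 0.11, Sucla2 from -0.18 to 0.39 and Mdh2 from -0.15 to 0.28. After overload Sucla2 ran from -0.045 to 0.12, and on the average from -0.076 to 0.21. In the interaction Idh2 ran from -0.021 to 0.34, Idh3a from -0.022 to 0.24, Ogdh from -0.0016 to 0.30, Dlst from -0.13 to 0.0087 and Sucla2 from -0.36 to 0.21. With quality weights Suclg1 in Sham was -0.063, and Sucla2 was -0.15 in Sham, -0.053 on the average and 0.19 in the interaction. Without WT Sham 1 and KO Sham column 3 together Suclg1 in Sham was -0.067, and Sucla2 was -0.36, -0.15 and 0.40.

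No label says what a replicate number marks. Same-numbered libraries correlated at -0.11 to 0.46, with 8 of 12 pairs over 0.1 against 7 of 36 pairs of other numbers. Of 24 comparisons, 13 were best with their own number. This is a hint, from the data and not from the design, that same-numbered libraries share something. The highest value, 0.46, was between KO MTE 1 and WT MTE 1, which differ in genotype. What is shared was not tested. Since not every pair was over 0.1, the numbers were not used in the main fit, which does not show that the libraries are independent. A fit of the 12 numbered libraries with a replicate block called 8 of the 9 in WT overload, with Mdh2 gained (-0.48, adjusted p = 0.0293), and 0 between genotypes after overload, where Fh1 had a log2 fold change of 0.45 and an adjusted p of 0.0629. In WT overload it called 6 of the 20 biogenesis regulators lower and 1 higher, and 11 of the 15 mitochondrially encoded genes lower. The share of all genes called in the block fit is not given here. Its counts therefore do not show whether the 9 or these lists differ from other genes. KO Sham columns carry no matched number, so comparisons with KO Sham had no block fit. With profiles scaled to unit SD, 2 of the 5 nearest genes were kept.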

Other observations

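The authors' deposited table holds its own p-values for the 9 genes. In the authors' deposited table the 2-way analysis of variance gave a p under 0.05 for surgery in 8 of the 9 (lowest 2.26e-07 for Suclg1, highest 0.110 for Mdh2), for genotype in 3 (lowest 4.65e-05 for Fh1) and for the interaction in 0 (lowest 0.0627 for Cs). The FDR columns of the authors' deposited table were under 0.05 for 5 of the 9 between KO Sham and KO MTE, for 1 between WT MTE and KO MTE (Fh1, 0.00522) and for 0 between the Sham groups. The analysis of variance columns are headed as p-values, not as FDR. The share of all rows under 0.05 was not counted for any of these columns. The counts therefore do not show whether the 9 differ from other genes. In the authors' deposited table the FDR column headed WT Sham against WT MTE holds the same value as that for WT MTE against KO MTE in all 17217 rows, so it was not read as the overload comparison.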
